A study of Mus musculus with 8 samples.

Results

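BH3-only genes encode the death initiators of the BCL2 family. The 8 examined here are the rows whose gene symbol is one of a list of family members, a list drawn up with earlier results of these data known: Bcl2l11 (encoding BIM), Pmaip1 (NOXA), Bbc3 (PUMA), Bid, Bad, Bmf, Bik and Hrk. The deposited count table of 22065 named genes holds 7 of them, and 5 (Bcl2l11, Bid, Bad, Bmf and Bbc3) were among the 16444 genes that had enough reads to be tested. Pmaip1 and Bik had reads but fell under that filter, and Hrk has no row in the table, where the smallest row total is 11 counts over all libraries.

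BH3-only proteins carry a short helix, the BH3 domain, that fits into a groove on their relatives. BCL2, BCL-XL and MCL1 hold BH3-only proteins in that groove and keep the cell alive, and they are called guardians here. When the guardians are occupied, or when BIM, BID or PUMA acts on them directly, the effectors BAX and BAK open pores in the outer mitochondrial membrane, cytochrome c leaves and caspases are activated. BIM, BMF and PUMA are largely set at the level of transcription, for example by FOXO3, CHOP and p53, whereas BID and BAD are mainly switched on by cleavage or dephosphorylation. In hematopoietic stem cells (HSCs) survival is known to depend on MCL1.

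RNA-seq was done on HSCs from the bone marrow of C57BL/6 mice aged 8 to 10 weeks, with 4 libraries labelled Mitol KO and 4 labelled Control, each from 100 sorted cells. MitolΔ/Δ mice carried Mitol Flox/Flox with MX1-cre, and controls were Mitol Flox/Flox littermates without the cre. Both groups received Poly:IC, and cells were taken 1 week later. MX1-cre is driven by an interferon-inducible promoter, so that deletion is not limited to HSCs. Sources do not say whether a library came from 1 mouse or from several, so that p-values measure only the spread between these libraries, which may be technical. In bulk libraries, fewer cells of a type and less RNA per cell cannot be told apart.

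The stretch that gives the family its name was read from the GENCODE vM39 transcripts on GRCm39 for the tested members. It is shown because it is what defines these genes as one family. Each line gives 42 bases of coding sequence, 5′ to 3′ on the strand of the gene, within 1 exon. Capitals mark the codon for the leucine that enters the groove and, further on, the pair of codons for a small residue and the aspartate after it. The search was for a leucine, any 2 residues, then I, L, M or V, then G, A or S, then D, and it matched 1 time in the translated protein of each.
Bcl2l11, chr2:127989058-127989099, plus strand: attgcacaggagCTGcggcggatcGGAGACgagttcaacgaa
Bmf, chr2:118375578-118375619, minus strand: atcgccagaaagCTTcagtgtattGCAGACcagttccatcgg
Bid, chr6:120874247-120874288, minus strand: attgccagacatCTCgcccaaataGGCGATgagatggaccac
Bad, chr19:6928148-6928189, plus strand: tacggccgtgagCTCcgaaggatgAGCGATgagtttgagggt
Bbc3, chr7:16047686-16047727, plus strand: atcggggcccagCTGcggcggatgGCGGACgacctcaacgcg

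The leucine was at codon 150 of 196 in Bcl2l11, 224 of 271 in Bmf, 90 of 195 in Bid, 109 of 162 in Bad and 141 of 193 in Bbc3. Reads were counted over whole genes, so that the counts do not tell which transcripts, with or without this stretch, were present.

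Library totals ran from 7214935 to 12398138 reads on named genes. The targeted gene Marchf5, which encodes MITOL, had normalised read counts of 276, 232, 308 and 281 in MitolΔ/Δ replicates 1 to 4 and 299, 312, 333 and 262 in control replicates 1 to 4. Its groups overlapped (log2 fold change -0.15, standard error 0.13, edgeR adjusted p = 0.498), and since reads were summed over the whole gene, the deletion could not be checked from these counts. Directions below are those of the libraries labelled Mitol KO against those labelled Control. Of the genes whose products define the gate for HSCs, Kit (CD117) was high in every library (5729 to 14954 counts) and is given below, Slamf1 (CD150) and Procr (EPCR) had at least 289 and 372 counts in every library, and Cd48 had 21 to 81 in MitolΔ/Δ and 5 to 23 in control libraries.

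Bcl2l11 was the member that rose in MitolΔ/Δ HSCs. BIM binds every guardian and can act on BAX directly. Its normalised read counts, meaning counts divided by the library's size factor, were 358, 294, 305 and 298 in MitolΔ/Δ replicates 1 to 4 and 209.7, 211, 171 and 224 in control replicates 1 to 4. Every MitolΔ/Δ library was above every control library, and replicate 1 was the highest. The means were 314 ± 30.0 (SD, n = 4) and 204 ± 22.5 (SD, n = 4), a ratio of 1.54. The log2 fold change fitted by edgeR was 0.61 with a standard error of 0.13 (adjusted p = 0.0212, Benjamini-Hochberg over all tested genes, by the quasi-likelihood test of edgeR). A 2-sided exact permutation test gave p = 0.0286, the smallest that 4 against 4 allows. The spread over libraries was 9.56% of the mean in MitolΔ/Δ and 11.05% in control HSCs, where counting error alone would give 5.43% and 7.12%.

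The rise in Bcl2l11 passed in all 7 fits made on the 8 libraries and in 5 of the 8 fits that left one out. It was lost without MitolΔ/Δ replicate 1 (adjusted p = 0.0618), control replicate 2 (0.0593) or control replicate 3 (0.0501), with log2 fold changes between 0.53 and 0.66 by edgeR over the 8 fits.

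Of the 5 tested members, 1 rose and 0 fell by this test, against 8.43% of all tested genes called in either direction (4.68% higher, 3.75% lower). By an unadjusted p under 0.05 the count was 2, Bcl2l11 and Bmf, against 26.4% of all tested genes, and DESeq2 called 2, the same pair, against 14.1% of all tested genes. The median log2 fold change of the 5 was -0.25, and that of all tested genes was -0.020. As a group, therefore, the members did not move one way, with 2 higher and 3 lower.

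**Figure D1:**
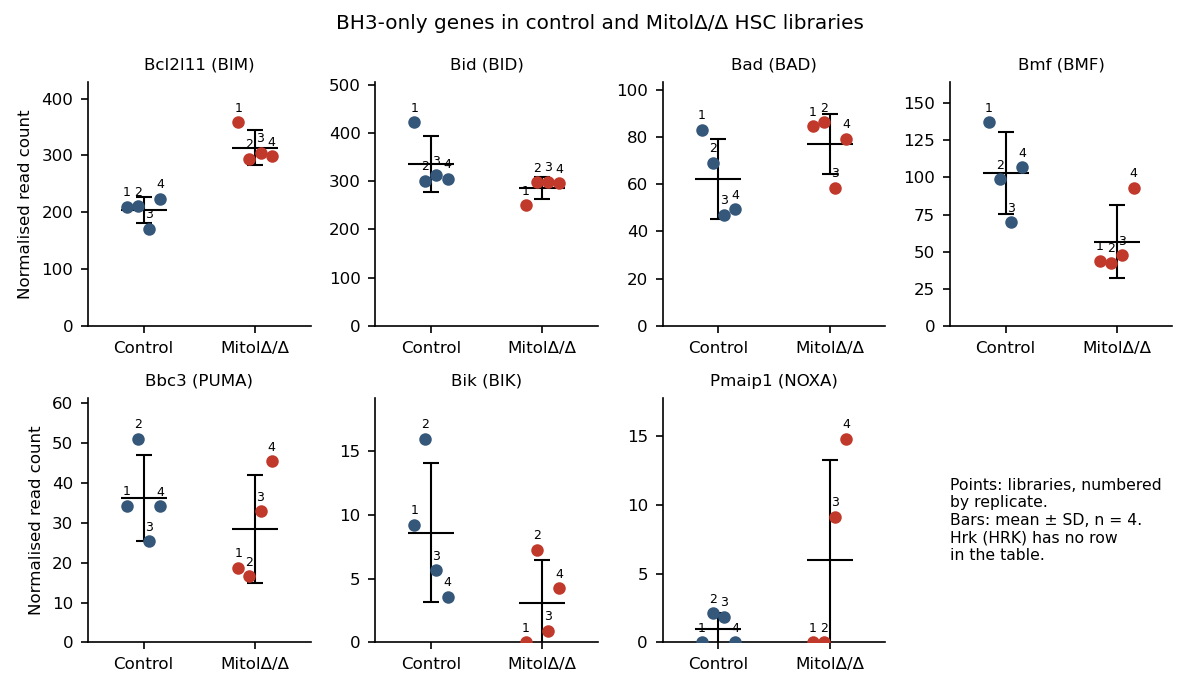
Normalised read counts (counts divided by the size factor, vertical axes from 0) of the 7 BH3-only genes in the table, by library. Each point is a library numbered by replicate, and bars are the mean ± SD of 4. Bcl2l11 is higher in all 4 MitolΔ/Δ libraries, Bmf is low in MitolΔ/Δ replicates 1 to 3, and Pmaip1 has reads in MitolΔ/Δ replicates 3 and 4 only among the MitolΔ/Δ libraries.

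Bmf leaned the other way. BMF is a BH3-only protein that is held at the cytoskeleton by the dynein light chain DYNLL2. Its normalised read counts were 43.8, 42.6, 47.6 and 93.1 in MitolΔ/Δ replicates 1 to 4 and 137, 99.0, 69.7 and 107 in control replicates 1 to 4. MitolΔ/Δ replicate 4 lay within the control range, and the other 3 were below all controls. The means were 56.8 ± 24.3 and 103 ± 27.7 (SD, n = 4 each), and the log2 fold change fitted by edgeR was -0.88 (standard error 0.30), which did not pass the test (adjusted p = 0.0863; 2-sided exact permutation test, p = 0.0571). DESeq2 gave an adjusted p = 0.0424, and edgeR without MitolΔ/Δ replicate 4 gave a log2 fold change of -1.20 (adjusted p = 0.0116). Over the other 7 fits that left out a library, edgeR's adjusted p for Bmf ran from 0.0760 to 0.198.

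The counts of Bcl2l11 and Bmf together moved apart. There were 8.18, 6.90, 6.40 and 3.20 Bcl2l11 counts per Bmf count in MitolΔ/Δ replicates 1 to 4, and 1.53, 2.13, 2.46 and 2.09 in control replicates 1 to 4. The groups did not overlap, but the pair was chosen after its values were seen, so that this stands as a description with no test.

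Bid, whose product is cut by caspase-8 to its active form, was the most abundant member per length of canonical transcript. Its normalised read counts were 250.5, 298, 298 and 295 in MitolΔ/Δ replicates 1 to 4 and 422, 301, 313 and 305 in control replicates 1 to 4. All MitolΔ/Δ libraries were below all control libraries, but 6 of the 8 lay between 295 and 313, and control replicate 1 stood above the rest. The log2 fold change of -0.25 (standard error 0.14) did not pass the test (edgeR, adjusted p = 0.283; 2-sided exact permutation test, p = 0.0286), and without control replicate 1 it was -0.11 (adjusted p = 0.628). Groups without overlap were found for 2 of the 5 tested members (Bcl2l11 and Bid), and for 15.4% of all tested genes, 8.17% with MitolΔ/Δ higher and 7.18% with it lower.

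Joined exons of Bid overlap those of Bcl2l13 and of another gene, both on the opposite strand. The larger of these overlaps covers 31.2% of the joined exons of Bid. The library kit does not mark strand, so that reads in the shared part cannot be told apart. Bcl2l13 rose (log2 fold change 0.45, adjusted p = 0.0341 by edgeR), in the direction opposite to the lean of Bid.

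Bad, which binds BCL2 and BCL-XL when it is dephosphorylated, had normalised read counts of 84.5, 86.2, 58.6 and 79.4 in MitolΔ/Δ and 83.1, 69.2, 47.1 and 49.4 in control replicates 1 to 4. The groups overlapped, and the log2 fold change of 0.30 (standard error 0.24) did not pass the test (edgeR, adjusted p = 0.466; 2-sided exact permutation test, p = 0.200). Its joined exons overlap those of Gpr137 and of another gene, both on the opposite strand, and the larger overlap covers 25.2% of them.

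Bbc3, whose product PUMA is a p53-induced binder of all guardians, had 18.8, 16.6, 33.0 and 45.5 in MitolΔ/Δ and 34.3, 51.1, 25.4 and 34.1 in control replicates 1 to 4. Its groups overlapped, and the change was -0.37 on the log2 scale (standard error 0.38; edgeR, adjusted p = 0.581). At this spread a change of that size was not detectable.

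Pmaip1, whose product NOXA binds chiefly MCL1, was near the limit of detection. Its raw counts were 0, 0, 10 and 14 in MitolΔ/Δ replicates 1 to 4 and 0, 2, 2 and 0 in control replicates 1 to 4. The reads therefore came almost wholly from MitolΔ/Δ replicates 3 and 4, and the groups overlapped at 0 (totals 24 and 4; 2-sided exact permutation test on normalised counts, p = 0.429). In the libraries at 0, a count of 0 allows up to 3 counts, which is 0.242 to 0.416 CPM (counts scaled to a common library total) over the 8 libraries. A fit with no filter gave a log2 fold change of 2.40 with a standard error of 1.39 (edgeR, adjusted p = 0.340). No difference in NOXA message could be shown or set aside at this depth of 100 cells per library.

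Bik, a BH3-only protein of the endoplasmic reticulum, had raw counts of 0, 7, 1 and 4 in MitolΔ/Δ and 7, 15, 6 and 4 in control replicates 1 to 4. The groups overlapped (normalised means 3.11 ± 3.32 and 8.61 ± 5.43, SD, n = 4; 2-sided exact permutation test, p = 0.143). Hrk, known mainly from neurons, was not in the table.

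Levels of the genes against each other were set as CPM per kb of the canonical transcript. In that order Bid came first with 13.7 ± 1.18 in MitolΔ/Δ and 16.3 ± 2.79 in control HSCs (SD, n = 4), above every other member in 8 of 8 libraries. Bad (6.85 ± 1.08 and 5.59 ± 1.52) and Bcl2l11 (6.56 ± 0.607 and 4.32 ± 0.485) followed, and Bad was above Bcl2l11 in 6 of 8 libraries, so that these neighbours were not set apart. With all exons of a gene joined as its length, Bcl2l11 stood above Bad in 8 of 8 and Bid above Bcl2l11 in 7 of 8, but the mean in MitolΔ/Δ HSCs was then higher for Bcl2l11 (3.28 ± 0.303) than for Bid (3.08 ± 0.265). Reads in the exons that Bid shares with Bcl2l13 cannot be told apart in its level. Bmf (1.29 ± 0.555 and 2.37 ± 0.636) exceeded Bbc3 (1.12 ± 0.535 and 1.44 ± 0.424) in 7 of 8, and Bik and Pmaip1 were lowest. Bcl2l11 made up 19.3% to 26.1% of the members' summed level in MitolΔ/Δ libraries and 11.7% to 16.8% in control libraries.

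**Figure D2:**
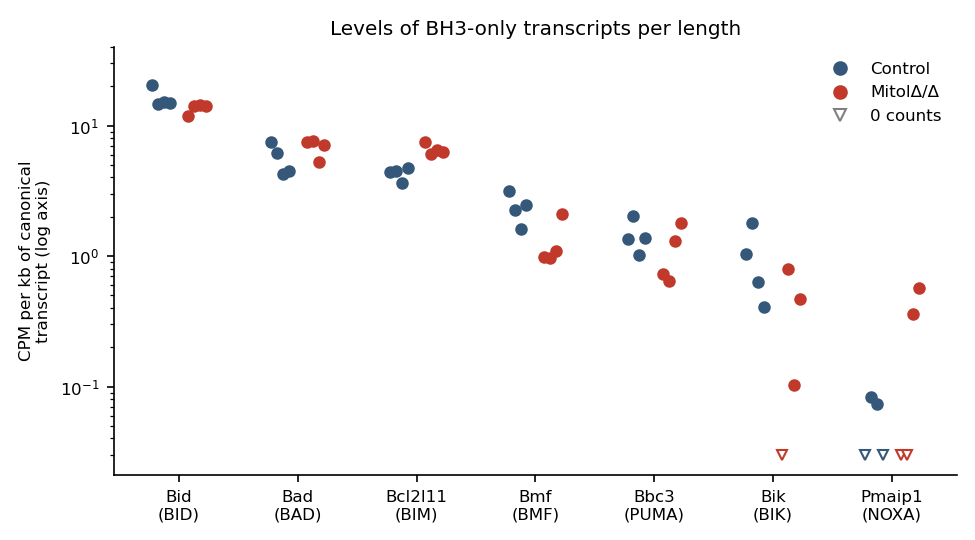
Levels of the 7 BH3-only genes in CPM per kb of canonical transcript, on a log axis, with a point per library and open triangles for libraries at 0 counts. Bid is highest in both groups, and Bik and Pmaip1 are lowest.

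The guardians did not pass the test. Of 8 guardian genes, 4 are in the table, and 0 of those 4 were called by edgeR or by DESeq2 (1, Bcl2, had an unadjusted p under 0.05). Over all tested genes, edgeR called 8.43% and DESeq2 14.1%, and 26.4% had an unadjusted p under 0.05 by edgeR. Bcl2 had 809 ± 103 normalised counts in MitolΔ/Δ and 673 ± 28.7 in control HSCs (log2 fold change 0.25, edgeR, adjusted p = 0.172). Mcl1, the most abundant guardian by count, had 4134 ± 425 and 4316 ± 871 (-0.08, adjusted p = 0.759 by edgeR). Bcl2l1 (BCL-XL) had 302 ± 76.7 and 302 ± 61.2, and Bcl2l2 (BCL-W) had 247 ± 10.3 and 284 ± 75.5, with adjusted p = 0.975 and 0.440 by edgeR. The sign of Bcl2l1 turned with the library left out (log2 fold change -0.14 to 0.17), and that of Mcl1 turned without control replicate 2 (0.00092, adjusted p = 0.998 by edgeR). Bcl2a1a, Bcl2a1b, Bcl2a1d and Bcl2l10 have no row.

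Of the 3 effectors, 1 rose, where 4.68% of all tested genes did. All 3 were higher with an unadjusted p under 0.05 by edgeR, against 26.4% of all tested genes in either direction. DESeq2 called 2, against 14.1%, and 2 had groups without overlap, against 15.4%. Bok, a BAX relative that is not held by guardians, had 93.9, 89.4, 43.0 and 28.6 normalised counts in MitolΔ/Δ replicates 1 to 4 and 25.1, 10.6, 16.01 and 14.4 in control replicates 1 to 4. The groups did not overlap (log2 fold change 1.94, standard error 0.42, edgeR, adjusted p = 0.0207), but the call was lost without MitolΔ/Δ replicate 1 (0.0597) or 2 (0.0619) or control replicate 2 (0.0682) or 4 (0.0595). Bax had 205 ± 7.71 and 150.3 ± 23.2, with no overlap (log2 fold change 0.43, edgeR, adjusted p = 0.0972; DESeq2, 0.0488), and Bak1 had 291 ± 25.9 and 203 ± 59.7, with overlap (0.51, edgeR, adjusted p = 0.105; 0.0241 without control replicate 1).

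**Figure D3:**
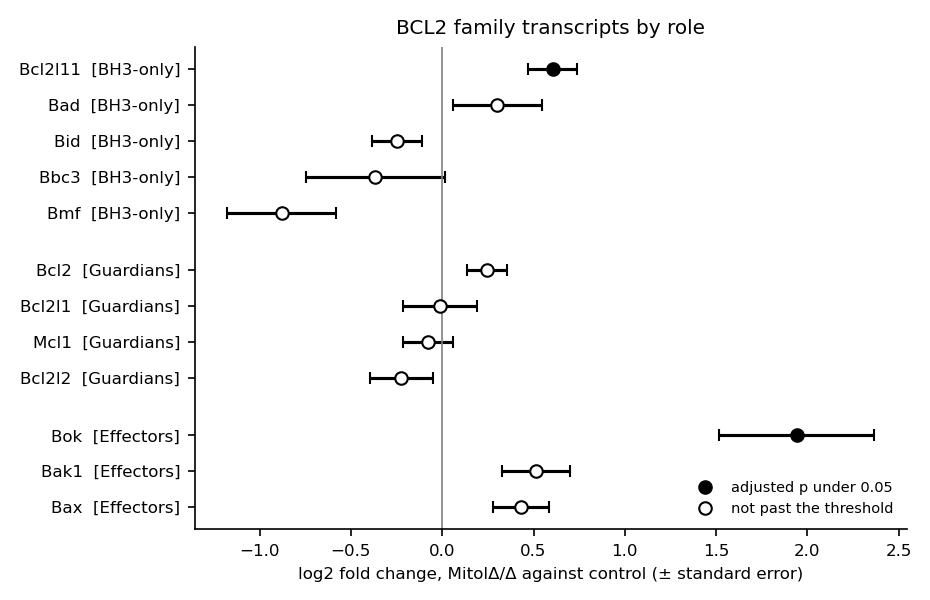
Log2 fold change of MitolΔ/Δ against control HSCs, with its standard error, for the tested BH3-only genes, guardians and effectors. Filled points (Bcl2l11 and Bok) passed an adjusted p of 0.05, and the guardians lie closer to 0 than Bcl2l11 does.

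The balance of BIM to its guardians was set within each library, where it does not depend on library size. Bcl2l11 reads per 1000 Mcl1 reads were 93.7, 78.6, 70.2 and 64.4 in MitolΔ/Δ and 48.3, 42.0, 35.5 and 72.6 in control replicates 1 to 4. Control replicate 4, which had the lowest Mcl1, lay inside the MitolΔ/Δ range (difference 0.67 on the log2 scale, 2-sided exact permutation test, p = 0.0857). Per 1000 Bcl2 reads the values were 536, 332, 343 and 377 against 302, 325, 265 and 319, without overlap but with MitolΔ/Δ replicate 2 just above the controls (difference 0.37, exact test, p = 0.0286). Per 1000 Bcl2l1 reads they were 1109, 925, 818 and 1549 against 566, 947, 543 and 750.0, with overlap (difference 0.64, exact test, p = 0.0857). Pmaip1 per 1000 Mcl1 reads reached 2.11 and 3.20 in MitolΔ/Δ replicates 3 and 4 and at most 0.424 in a control library (exact test, p = 0.429). Adjusted over these 4 ratios, the exact p-values were 0.114, 0.114, 0.114 and 0.429, so that none passed. The ratio to Bcl2 was already at the smallest exact p that 4 against 4 allows (0.0286). A single ratio at that limit cannot pass this adjustment, whatever its size.

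**Figure D4:**
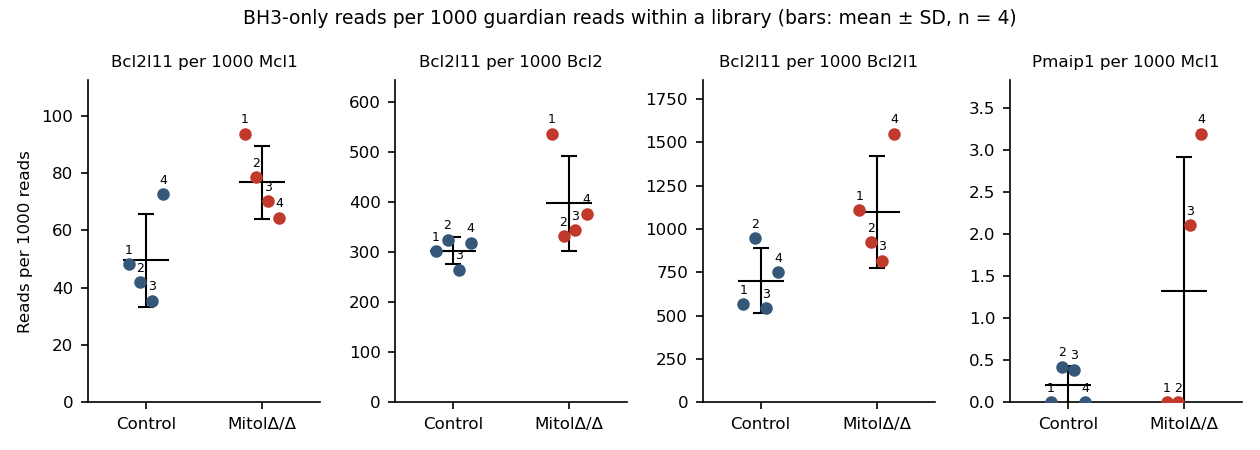
Reads of Bcl2l11 per 1000 reads of Mcl1, Bcl2 and Bcl2l1, and of Pmaip1 per 1000 of Mcl1, in each library (axes from 0, bars mean ± SD of 4, points numbered by replicate). The groups separate for Bcl2 and overlap for the other three.

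Among genes known to control BH3-only transcription, 1 of 10 tested passed, where 8.43% of all tested genes did. Trp53 (p53) rose with a log2 fold change of 0.31 (edgeR, adjusted p = 0.0423), a call that held only without MitolΔ/Δ replicate 4 (0.0163) or control replicate 1 (0.0301) when a library was left out, being 0.0827 to 0.127 otherwise. It passed in 6 of the 7 fits made on all libraries. Foxo3, whose product activates Bcl2l11, had a log2 fold change of -0.20 (edgeR, adjusted p = 0.119), and Ddit3, which encodes CHOP, had -0.30 (0.320). Atf4 (-0.18, edgeR, adjusted p = 0.589), Myc (-0.22, 0.367) and E2f1 (0.54, 0.210) did not pass either. E2f1 passed without MitolΔ/Δ replicate 4 (0.0453).

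Targets of these factors were read as lists chosen from general knowledge. Over all tested genes 4.68% rose and 3.75% fell by edgeR. Of 11 tested p53 targets outside the BH3-only genes, 1 rose, Cdkn1a, the cell cycle inhibitor p21 (log2 fold change 1.99, edgeR, adjusted p = 0.0170; past the threshold in 8 of 8 fits that left out a library). Of 12 FOXO targets, 1 fell, Fbxo32, a ubiquitin ligase known from muscle wasting (-0.90, edgeR, adjusted p = 0.0322; held only without MitolΔ/Δ replicate 4 (0.00767) or control replicate 3 (0.0243), and 0.0562 to 0.0942 otherwise). Of 3 tested CHOP targets, 0 passed by edgeR or DESeq2, and 1 had an unadjusted p under 0.05.

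Of 19 genes whose products tether, modify or degrade BH3-only proteins and their partners, 5 rose and 0 fell by edgeR (median log2 fold change 0.14). Over all tested genes 4.68% rose and 3.75% fell, and the median was -0.020. Pim1, a kinase that phosphorylates BAD, had 0.97 (edgeR, adjusted p = 0.00836) and held in 8 of 8 fits that left out a library. Dynll1, the light chain that holds BIM, had 1.05 (0.0186), lost without MitolΔ/Δ replicate 3 (0.0511) or control replicate 2 (0.0606). Ywhae, a 14-3-3 protein that binds phosphorylated BAD, had 0.50 (0.0261), kept only without MitolΔ/Δ replicate 4 (0.00815) or control replicate 1 (0.0185), and 0.0517 to 0.0797 otherwise. Fbxw7, a ligase that targets MCL1, had 0.34 (0.0496), and with a library left out it passed only without MitolΔ/Δ replicate 4 (0.0275, and 0.0721 to 0.140 otherwise). It passed in 4 of the 7 fits made on all libraries. Casp8, which cleaves BID, had 0.34 and was just outside (edgeR, adjusted p = 0.0592), passing without MitolΔ/Δ replicate 4 (0.0361) or control replicate 1 (0.0395).

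Downstream of the pore, 1 of 8 genes of the apoptosome and caspases rose, where 4.68% of all tested genes did. Cycs (cytochrome c) had 205, 179, 134 and 85.7 normalised counts in MitolΔ/Δ and 67.3, 55.3, 78.2 and 64.7 in control replicates 1 to 4 (log2 fold change 1.16, edgeR, adjusted p = 0.0217), lost without MitolΔ/Δ replicate 1 (0.0606) or 2 (0.0618) or control replicate 2 (0.0692) or 4 (0.0581). Of 6 genes with BH3-like motifs, Bcl2l13 alone rose; its call held only without MitolΔ/Δ replicate 4 (0.00758) or control replicate 3 (0.0341) when a library was left out, and was 0.0592 to 0.101 otherwise.

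The genes most like Bcl2l11 over the 8 libraries, by root mean square distance of centred log2 CPM among 10387 genes with a mean of at least 10 CPM, were Nipsnap3b (0.0799), Rfx2 (0.0899) and Dap (0.102). Their log2 fold changes were 0.59, 0.55 and 0.49 (edgeR, adjusted p = 0.0186, 0.0170 and 0.0292). The distance takes in the difference between the groups, so that genes this close to Bcl2l11 were bound to rise with it. These values are therefore a description and no separate result.

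Other groups of genes moved in the same libraries. All 8 of 8 cell cycle genes rose, where 4.68% of all tested genes rose and 3.75% fell. Ccna2 also rose in each of the 8 fits that left out a library. In those fits 1 to 8 of the 8 passed, with 1 without MitolΔ/Δ replicate 2 and 3 without control replicate 2, and Ccnb1 held in 2 fits only. Their summed level was 559 to 1167 CPM in MitolΔ/Δ and 284 to 592 in control libraries, with MitolΔ/Δ replicate 4 lowest among the MitolΔ/Δ libraries. Of 10 erythroid genes, 6 were tested and 2 rose, Gata1 and Hbb-bt (past the threshold in 8 and 3 of the 8 fits that left out a library), with summed levels of 124 to 419 and 50.9 to 98.2 CPM. The erythroid sum was highest in MitolΔ/Δ replicate 3, with 285 CPM in MitolΔ/Δ replicate 4. The cell cycle sum was highest in MitolΔ/Δ replicate 1. With all 8 libraries the log2 fold change of Bcl2l11 was 0.61. It was 0.63 without MitolΔ/Δ replicate 3 (adjusted p = 0.0499 by edgeR) and 0.54 without MitolΔ/Δ replicate 1 (0.0618, not past the threshold). Of the gate genes, Kit fell (8 of 8 such fits) and Cd48 rose (2 of 8, with adjusted p up to 0.138 by edgeR). Of 7 T and NK cell genes 4 are in the table and 3 were tested, with 2 higher and 1 lower, and Nkg7 rose (8 of 8 such fits). Cd3e, Cd3g and Cd8a have no row. The summed level of the T and NK cell genes was 45.4 to 51.5 CPM in MitolΔ/Δ and 28.4 to 38.0 in control libraries. Of 7 megakaryocyte genes 5 were tested, with 2 higher and 3 lower, and Pf4 fell (5 of 8 such fits). The summed level of that list was 272 to 725 CPM in MitolΔ/Δ and 373 to 592 in control libraries. Neutrophil and monocyte, B cell and mast cell and basophil genes gave 0 calls of 2, 1 and 1 tested by edgeR. The summed level of the neutrophil and monocyte genes was 57.0 to 109.9 CPM in MitolΔ/Δ and 44.4 to 69.2 in control libraries. Within that list Prtn3 had 462 to 1006 normalised counts against 332 to 566 (log2 fold change 0.76; adjusted p = 0.0674 by edgeR and 0.0155 by DESeq2), and S100a8 had 0 to 2 raw counts against 0 to 57. The part of these groups in the rise of Bcl2l11 was not tested.

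**Figure D5:**
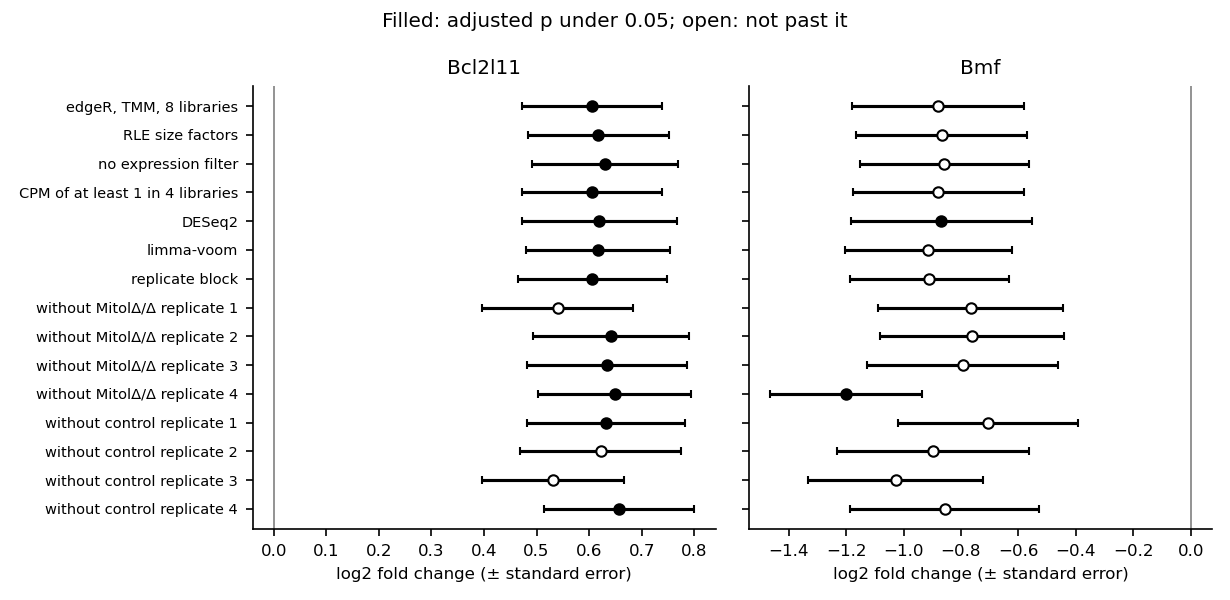
Log2 fold change with standard error of Bcl2l11 and Bmf under the 7 settings that keep all libraries and the 8 fits that leave out one. Filled points have an adjusted p under 0.05. Bcl2l11 stays between 0.53 and 0.66, and Bmf lies between -1.20 and -0.71.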

How the data were processed

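Per the series description, HSCs were sorted by CD150+, CD48-, EPCR+ and Lineage-, and the methods add c-Kit+ (CD117, encoded by Kit); 100 cells per library were sequenced as single-end reads of 75 bases. According to the methods and processing notes, reads were aligned with STAR to mm39, merged with SAMtools and counted with Subread; the annotation and strand setting are not given in the sources used here. The values are raw counts per gene as deposited by the authors, in rows with at least 11 counts; rows without a symbol (1029 of 23094, 0.335% to 0.467% of counts) were left out, and 21525 symbols matched GENCODE vM39. Genes passing edgeR's expression filter (version 4.0.16, R 4.3.3) were tested by the quasi-likelihood test with TMM scaling, group as the sole term and Benjamini-Hochberg adjustment over 16444 genes at 0.05. Normalised counts use DESeq2 (1.42.0) size factors, and single values use 2-sided exact permutation tests over 70 arrangements. On simulated counts of 16125 genes with 200 changed by 1 on the log2 scale, edgeR recovered 54.5% with 9.92% false calls. On the same counts DESeq2 recovered 67.5% with 15.1% false calls, and limma-voom 52.5% with 5.41%. Library pairs within a group differed beyond sampling noise (chi-square per degree of freedom 6.05 to 26.8). Intervals and limits cover counting error only, since no molecular identifiers were used and reads can be copies of 1 molecule. The members and lists were chosen with earlier results of these data known. Named genes were the 8 members, guardians, effectors, list members past the threshold, Marchf5, Trp53, Foxo3, Ddit3, Atf4, Myc, E2f1 and the 3 genes most like each called member; Casp8, Prtn3, S100a8 and Gpr137 were added after values were seen, and some list members are not reported here. Pmaip1 and Bik failed the filter, so their normalised counts were compared instead, and the ratio of Pmaip1 to Mcl1 was taken on the linear scale because of 0 counts. Alternatives were RLE scaling, no filter, a CPM filter, DESeq2, limma-voom (3.58.1), a replicate block and each library left out.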

Additional observations from a re-analysis of the deposited data

Results flagged for a closer look

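In each of 36 groups of 4 libraries, a library was marked when its gap to the nearest other library exceeded Dixon's 95% critical value as a share of the group's range; chance marks about 1 in 20 groups, and 4 were marked. Bcl2l11 in MitolΔ/Δ replicate 1 had 358.47 normalised counts, with 304.83 next. Bid in the same library had 250.46, with 295.19 next, and Bid in control replicate 1 had 422.01, with 312.74 next. Bmf in MitolΔ/Δ replicate 4 had 93.105, with 47.602 next. Without the library concerned, Bcl2l11 was at 0.54 on the log2 scale (edgeR, adjusted p = 0.0618) and Bmf at -1.20 (0.0116).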

How the results depend on the processing

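Over all genes, 1386 passed by edgeR, 2317 by DESeq2 and 359 to 2501 when a library was left out. Under DESeq2 the counts became 2 for BH3-only genes (Bmf joined at -0.87), 2 for effectors and 2 for FOXO targets, which also had 2 under limma-voom and under the replicate block. With a library left out, counts ran from 0 to 2 for BH3-only genes, effectors, transcription regulators and the apoptosome, from 0 to 1 for BH3-like genes and CHOP targets, from 1 to 8 for protein regulators and from 0 to 4 for FOXO targets, and the log2 fold change from 0.53 to 0.66 for Bcl2l11 and from -1.20 to -0.71 for Bmf. Ranges without a library were -0.66 to -0.15 for Bbc3, -0.29 to -0.11 for Bid, 0.19 to 0.48 for Bad, 2.05 to 6.99 normalised counts for Pmaip1 and -7.18 to -3.05 for Bik. For the ratios they were 0.53 to 0.87 (Bcl2l11 to Mcl1), 0.21 to 0.45 (to Bcl2), 0.46 to 0.80 (to Bcl2l1) and 0.499 to 1.57 per 1000 counts (Pmaip1 to Mcl1); with 3 against 4 the exact test cannot go below 0.0571.

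Same-numbered libraries showed no clear pairing. Their deviations correlated at 0.080, -0.070, 0.053 and 0.067, and not every library correlated best with its own number. This check cannot show that pairing was absent. With the replicate block, 1652 genes passed (957 higher), transcription regulators fell to 0, and Bcl2l11 was at 0.61 (adjusted p = 0.0274). No fold change of a tested BH3-only gene and no ratio changed direction under any setting run; among the guardians, Bcl2l1 (-0.14 to 0.17) and Mcl1 (-0.21 to 0.00092) did when a library was left out. The causes were not tested.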
